A study of Mus musculus with 39 samples.

Results

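B and T lymphocytes are minor cell types of fat, and their genes were followed here across diets and time in mouse subcutaneous adipose tissue. The 33 genes were 9 B cell genes, 20 T cell genes and 4 cytotoxic genes out of 29411 gene names on the array. A gene was taken when its name on the array equalled a name of the list, and its brightest probe stood for it. Its level is the log2 of the processed spot signal minus the log2 of the 75th percentile of all spots on the same array, so a level of 0 equals that percentile and a difference of 1 is a doubling.

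Each array measured RNA from subcutaneous adipose tissue of C57BL/6J mice that had been weaned at 3 to 4 weeks of age and split at random into 5 diet groups of 30 animals. LFC animals ate a low-fat control diet with 10% of calories from fat. HFC animals ate a high-fat diet with more sucrose and 60% of calories from fat. HF5, HF20 and HF75 animals ate the same high-fat diet with 5 µg, 20 µg or 75 µg of KAL-1, an aqueous botanical formulation, so HFC was the control for KAL-1 and the 4 high-fat groups shared the diet. LFC was sampled on Days 6, 10 and 14 and in Weeks 0, 3, 6, 9, 12, 15 and 18. Weeks were counted from Day 14 in the study's methods, so Day 14 and Week 0 are the same age on the diet, and they were kept here as 2 sets of arrays. HFC was sampled at the same times and at Day 1, and the KAL-1 groups were sampled from Week 3 on. There were 10 LFC, 11 HFC and 6 arrays of each KAL-1 dose, 39 in all, with 1 array per diet and time point. The labels do not say how many animals an array pooled and do not give the sex, so n counts arrays, and their small number bounds how precise any value can be.

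Lymphocytes circulate between blood, lymph nodes and tissues. A B cell carries an antigen receptor that signals through CD79A and CD79B, a T cell carries a receptor that signals through the CD3 chains, and cytotoxic T and natural killer cells store granzymes for killing target cells. Subcutaneous fat holds scattered lymphocytes and also encloses lymph nodes, which are packed with naive B and T cells that enter through high endothelial venules. In whole tissue, fewer cells of a type and less RNA per cell cannot be told apart.

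Promoters of the members were read from RefSeq on GRCm38.p6, each holding 250 bases before and 50 bases after the gene's start, and 24 of the 33 members had an entry. The 5 printed here are of receptor, coreceptor and granzyme genes whose levels are described later. Capitals mark the motifs searched on both strands, which were EBF (TCCC and GGGA with 2 bases of any kind between them), octamer (ATGCAAAT), ETS (AGGAAG), TCF/LEF (CTTTGA), RUNX (TGTGGT) and the E2A E-box (CAGCTG), and none of them contains another.
Cd79a, chr7:24897247-24897546, plus strand: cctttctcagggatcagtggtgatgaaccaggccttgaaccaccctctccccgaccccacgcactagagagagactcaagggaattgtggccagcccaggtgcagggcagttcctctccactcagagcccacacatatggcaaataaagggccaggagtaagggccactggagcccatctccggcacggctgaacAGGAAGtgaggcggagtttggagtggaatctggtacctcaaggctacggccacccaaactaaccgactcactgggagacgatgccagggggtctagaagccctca
Cd22, chr7:30878979-30879278, minus strand: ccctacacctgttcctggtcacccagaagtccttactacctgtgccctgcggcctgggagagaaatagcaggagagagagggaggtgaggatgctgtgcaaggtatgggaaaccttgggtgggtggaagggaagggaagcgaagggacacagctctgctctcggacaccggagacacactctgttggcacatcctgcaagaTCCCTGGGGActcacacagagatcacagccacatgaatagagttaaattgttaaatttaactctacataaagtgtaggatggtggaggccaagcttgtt
Cd3d, chr9:44981536-44981835, plus strand: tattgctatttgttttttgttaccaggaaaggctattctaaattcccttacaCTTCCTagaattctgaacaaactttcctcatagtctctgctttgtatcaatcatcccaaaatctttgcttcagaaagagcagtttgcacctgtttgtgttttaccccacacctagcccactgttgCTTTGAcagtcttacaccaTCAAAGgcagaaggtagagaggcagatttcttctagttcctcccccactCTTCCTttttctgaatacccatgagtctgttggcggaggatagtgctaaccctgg
Cd3e, chr9:45009562-45009861, minus strand: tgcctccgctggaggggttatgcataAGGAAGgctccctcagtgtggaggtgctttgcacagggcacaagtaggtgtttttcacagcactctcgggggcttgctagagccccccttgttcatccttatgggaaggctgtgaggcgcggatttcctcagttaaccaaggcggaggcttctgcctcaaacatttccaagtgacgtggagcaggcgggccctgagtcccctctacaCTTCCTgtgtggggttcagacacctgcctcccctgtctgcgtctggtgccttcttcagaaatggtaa
Gzma, chr13:113100932-113101231, minus strand: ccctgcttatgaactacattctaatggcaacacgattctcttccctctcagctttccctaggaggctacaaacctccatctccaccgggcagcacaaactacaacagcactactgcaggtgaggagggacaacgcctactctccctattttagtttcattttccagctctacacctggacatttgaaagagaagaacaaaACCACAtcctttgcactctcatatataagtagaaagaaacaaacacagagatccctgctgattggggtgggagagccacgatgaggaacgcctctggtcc

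The Cd79a window held an ETS motif 55 bases before the start, and the Cd22 window held an EBF motif 49 bases before it. The Cd3d window held ETS motifs 198 and 5 bases before the start and TCF/LEF motifs 73 and 54 bases before it. The Cd3e window held ETS motifs 224 and 17 bases before the start, and the Gzma window a RUNX motif 50 bases before it. The ETS letters stood in 3 of 6 B cell, 10 of 15 T cell and 1 of 3 cytotoxic windows, against 35.1% of the 27025 promoters. The EBF letters stood in 1 of 6 B cell windows and in none of the others, against 0.914% of all promoters, and the octamer in no member's window, against 1.75%. TCF/LEF letters stood in 0 of 6, 5 of 15 and 1 of 3 windows (16.2% of all promoters), RUNX letters in 1, 3 and 2 (16.9%), and the E-box in 0, 3 and 0 (16.1%). These matches describe letters in a window and are not binding sites.

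The 39 arrays lay on 36 slides and were scanned on 14 days. The 75th percentile of the processed intensity ran from 108 to 1290 between arrays, and 49.3% to 87.8% of the 43803 spots were well above background. Several arrays stood apart. On the LFC array of Week 3, most members had their highest level. On the HF75 array of Week 3, 6 of the 33 members were well above background, and on the LFC array of Week 18, the dimmest, 11 were, against 19 to 33 on the others. The Week 12 arrays labelled HF5 and HF20 each matched the column of the other one in the deposited value table, while 26 of 28 arrays matched their own, so those labels were also exchanged in an alternative. The HF20 array of Week 15 had 4936 outlier spots against a median of 42. The fat cell list was in place: its 11 genes, adiponectin (Adipoq) and perilipin (Plin1) among them, were well above background on the 39 arrays.

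**Figure D1:**
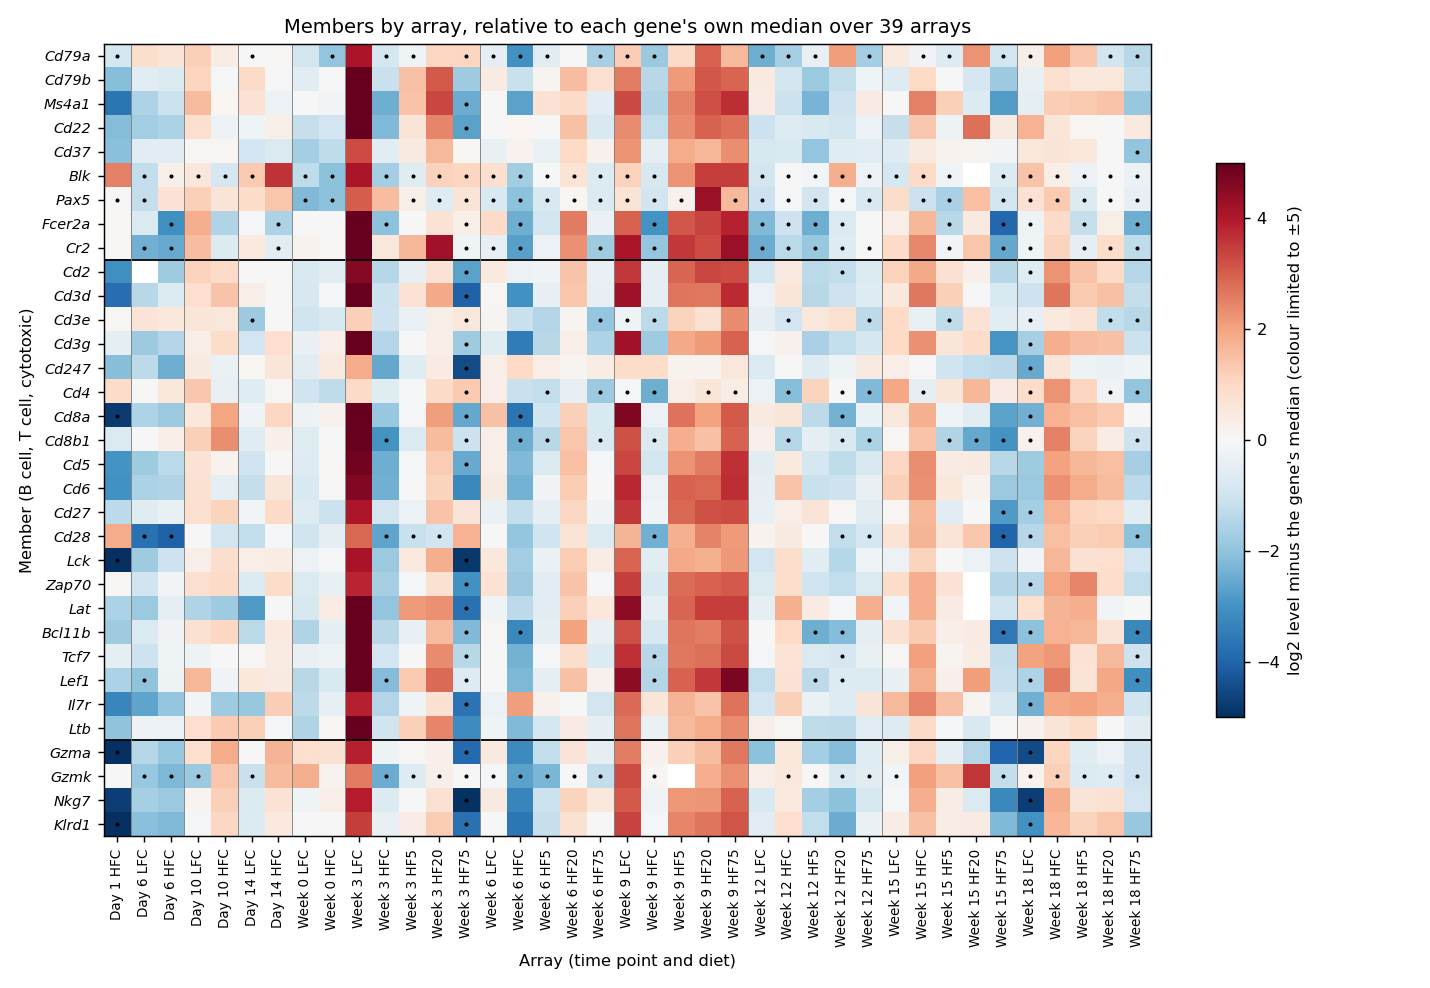
Each cell is the level of a member (row) on an array (column), shown as the shift in log2 units from that member's median over the 39 arrays. Rows are grouped into B cell, T cell and cytotoxic genes, and columns by time point, with the diets side by side within each. A dot marks a spot that was not well above background. White marks a level near the member's median or a spot left out as an outlier. The LFC Week 3 column is the highest for 29 of 33 members, and the Week 9 columns of LFC, HF5, HF20 and HF75 are also high.

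Most members shared 1 pattern over the arrays, in which the LFC array of Week 3 was highest, the Week 9 arrays of LFC and of the KAL-1 groups came next, and the HFC array of Week 9 was not raised. The LFC Week 3 array was the highest of 39 for 29 of the 33 members, or 87.9%, against 6.07% of 28468 gene names that were well above background on 1 array or more. On that array the members lay a median of 4.61 log2 units above their own medians. It was highest for 8 of 9 B cell, 18 of 20 T cell and 3 of 4 cytotoxic genes. The exceptions were Pax5, highest on HF20 Week 9, Cd3e, highest on HF75 Week 9, Cd4, highest on HFC Week 18, and Gzmk, highest on HF20 Week 15. The count was 26 with normexp background correction, 29 with quantile normalization, 29 with the mean of all probes and 28 with outlier spots kept.

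The B cell genes lay farthest up on that array, with a median shift of 5.47 and a range of 3.03 to 7.45. Cd79b, a signalling chain of the B cell receptor, had a level of 5.67 on LFC Week 3, and its next highest level was 2.17 on HF20 Week 9. The gene for CD20, Ms4a1, reached 5.64 against a next highest level of 1.89 on HF75 Week 9. The low-affinity IgE receptor Fcer2a, a marker of mature B cells, reached 1.42 and next -0.85, also on HF75 Week 9. For each of these 3 genes the second highest array was one of Week 9, and HF20 Week 3 was close behind for Cd79b, at 2.16.

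Other B cell genes had a similar order of arrays. The complement receptor gene Cr2 reached 0.42 on LFC Week 3 and -1.38 on HF75 Week 9, and the inhibitory coreceptor gene Cd22 reached 2.05 and next -0.49 on HF20 Week 9. The tetraspanin gene Cd37 reached 0.34 on LFC Week 3 and -0.60 on HF75 Week 9. Cd79a, the partner chain of Cd79b, was well above background on 17 of 39 arrays and ranged from -8.81 on HFC Week 6 to -1.69 on LFC Week 3. Blk, a Src family kinase, and Pax5, the factor that holds B cell identity, were well above background on 7 and 10 arrays, and Pax5 on no array of HF5 or HF75, so their low levels are bounds. Probes of a gene did not always move together: the other probe of Cr2 correlated with the one used at r = 0.16 over the arrays, against 0.85 for Cd37.

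The T cell genes shifted by a median of 4.72 on the LFC Week 3 array, from 0.95 for Cd4 to 5.76 for Cd3d. Cd3d, a chain of the CD3 complex, reached 3.93 there and 2.40 on LFC Week 9, its second highest array. Cd3g, another CD3 chain, reached 2.63 and 1.30 on the same arrays. The CD8 chains Cd8a and Cd8b1 reached 2.06 and 0.52 on LFC Week 3, and 1.12 and -1.51 on LFC Week 9. LFC Week 9 was the second highest array for 17 of the 33 members.

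Genes of T cell signalling and of the naive programme followed. Tcf7 and Lef1, transcription factors of naive T cells, lay 5.73 and 5.68 log2 units above their medians on LFC Week 3. The kinases Lck and Zap70 and the adaptor Lat, which pass on the T cell receptor signal, lay 4.14, 3.79 and 5.29 above theirs. Il7r, the survival cytokine receptor of naive cells, lay 3.88 above, and lymphotoxin beta (Ltb), a cytokine needed to form lymph nodes, 5.44 above. Cd5, Cd6, Cd2, Cd27, Cd28 and Bcl11b, surface receptors and a T cell identity factor, lay 4.84, 4.61, 4.61, 4.04, 2.86 and 5.00 above. Cd247, the zeta chain, lay 1.87 above, and its other 2 probes correlated with it at r = 0.05 and 0.45. Cd4, the helper coreceptor, ranked 8 on that array, at -4.22, with its highest level of -2.95 on HFC Week 18. Cd3e ranked 2 there, at -3.02, below -1.85 on HF75 Week 9.

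The cytotoxic genes had the smallest median shift on the LFC Week 3 array, 3.67, with a range of 2.60 to 3.93. Granzyme A (Gzma) reached 2.41 there and 1.14 on HF75 Week 9. The granule gene Nkg7 reached 3.52 and 2.66, and the natural killer receptor chain Klrd1 1.59 and 1.5, on LFC Week 3 and LFC Week 9. Granzyme K (Gzmk), well above background on 14 arrays, had its highest level of -2.53 on HF20 Week 15 and -3.50 on LFC Week 3. No spot of a member was saturated.

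Genes outside the 33 were read on the same array from lists of other cells. Of 25 other B cell genes, 20 were highest there, with a median shift of 3.93, as were 11 of 27 other T cell genes (3.22) and 7 of 18 other cytotoxic and natural killer genes (2.83). Of 8 genes for homing of naive lymphocytes 6 were highest, with a median shift of 3.73, among them the chemokine receptor gene Ccr7, at 3.70. Of 10 genes of leukocytes in general, 9 were highest, with a median shift of 3.15.

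Genes of the lymph node's own framework were spread widely on that array. Of 13 stromal and high endothelial venule genes 3 were highest on LFC Week 3, with a median shift of 0.69 and a range of -0.44 to 10.91, and a mean shift of 1.97. That mean rests on Glycam1 and Fut7, without which it was 0.85 and 6 arrays were higher. Glycam1, a ligand made by high endothelial venules, was well above background on 20 arrays. It had a level of 5.59 there, 10.91 above a median that itself lay near background and is a bound. Its next levels were 3.09 on LFC Day 14, 2.34 on HF20 Week 9 and 2.27 on LFC Day 10. On those arrays the B cell genes shifted by 0.50, 3.28 and 1.25, and the T cell genes by -0.67, 2.15 and 0.48. Fut7, which makes the carbohydrate ligands of selectins, and the chemokine gene Ccl21c were the other 2 genes highest on LFC Week 3, at 2.18 and 3.84. Ccl19 and Cxcl13, chemokines of the T and B cell zones, ranked 8 and 9 on that array. None of 9 plasma cell genes and none of 15 macrophage genes was highest there, with median shifts of 1.19 and 0.00, and 3 of 9 germinal centre genes were, with 1.73. Fat cell genes shifted by -0.70, muscle genes by 0.75, epithelial genes by 0 and red cell genes by 0.20. Whether the sample of this array held lymph node tissue was not tested.

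**Figure D2:**
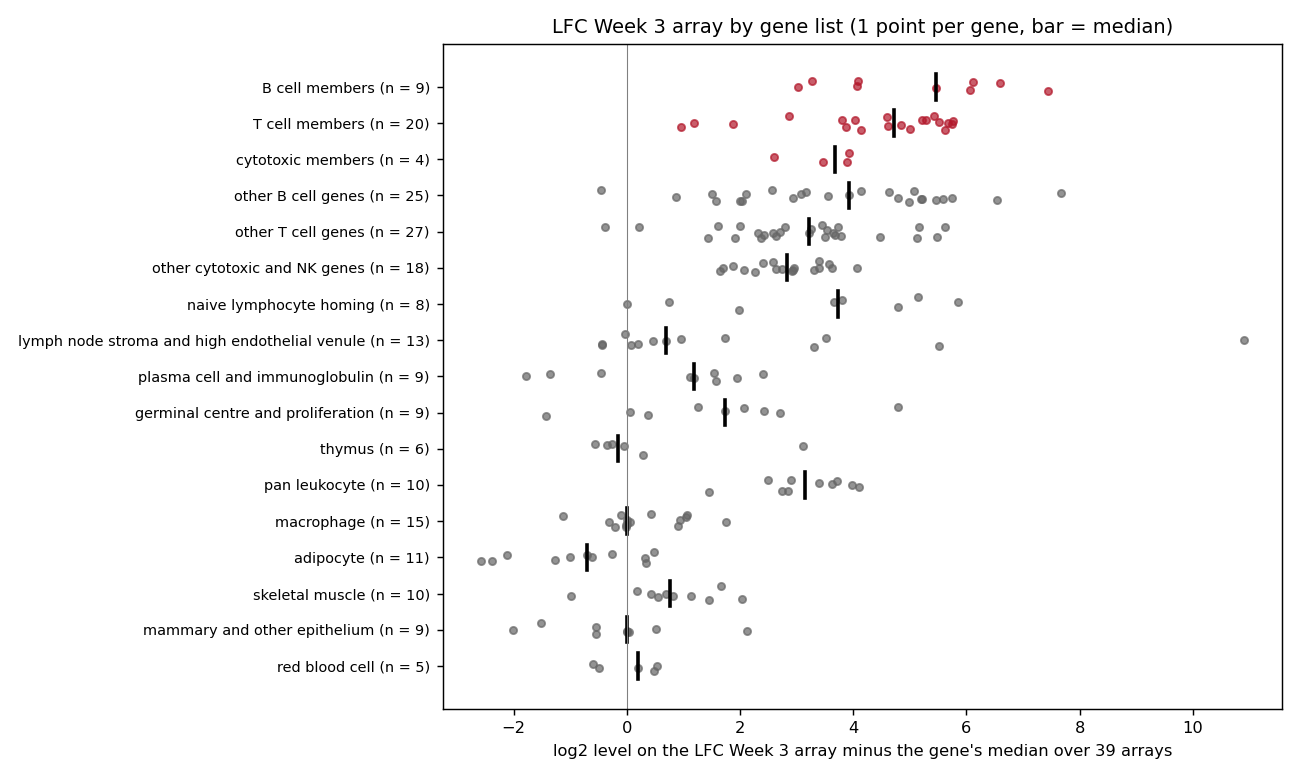
Each point is 1 gene, placed on the horizontal axis by its level on the LFC Week 3 array minus its own median over 39 arrays, in log2 units, with 1 row per gene list and a bar at the list median. The B cell members lie farthest to the right with a median of 5.47, T cell members follow with 4.72, and macrophage genes lie around 0.

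Over time, each member was set against its own median, and the mean of these shifts was centred on its median over arrays for each of the 3 groups. At Week 9 the B cell mean was shifted by 2.43 in LFC, 2.24 in HF5, 3.28 in HF20 and 3.10 in HF75, and by -1.30 in HFC. The T cell mean was shifted by 2.95, 2.06, 2.15, 2.78 and -0.85 in the same order. The cytotoxic mean was shifted by 2.95, 1.83, 1.95, 2.63 and -0.11, with the Gzmk spot left out in HF5. HFC was thus the lowest of the 5 arrays of that week for all 3 groups. The 75th percentile of intensity, by which levels were scaled, was 204, 328, 211, 358 and 650 on these arrays in the same order. The part of this difference in the shifts was not tested.

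In HFC the order over time differed from that of the other diets. The HFC arrays of Week 15 and Week 18 had B cell shifts of 1.16 and 1.16 and T cell shifts of 1.45 and 1.73, the highest of the HFC arrays. The HFC array of Week 6 had the lowest B cell shift of the 39, -1.58, and the HF75 array of Week 3 the lowest T cell shift, -2.11. The lowest levels of single members fell mainly on HFC Day 1 and HF75 Week 3, 9 members each, where the mean of 10 skeletal muscle genes was shifted by 6.39 and 7.88, the 2 highest of all arrays.

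**Figure D3:**
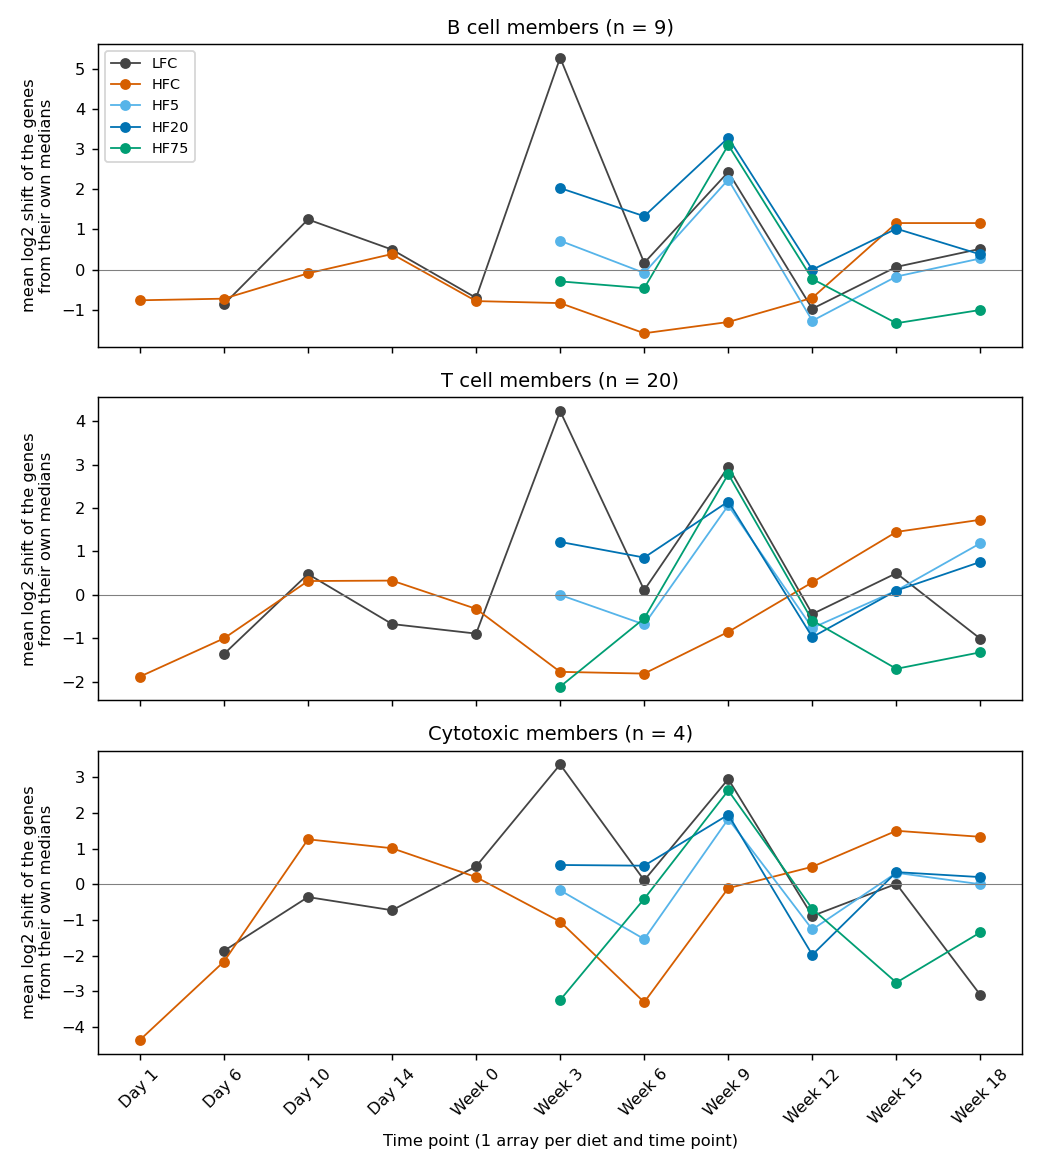
The horizontal axis gives the time points in order, and the vertical axis the mean shift of the B cell, T cell or cytotoxic genes from their own medians, centred on its median over 39 arrays, in log2 units, with 1 line per diet and 1 array per point. LFC peaks at Week 3 with a B cell shift of 5.27, and all diets but HFC are raised at Week 9.

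The B and T cell genes could be compared with each other as differences from their own medians. On the LFC Week 3 array the B cell shift exceeded the T cell shift by 1.04, on LFC Day 14 by 1.17 and on HF20 Week 9 by 1.13. On HFC Week 12 and Week 18 the B cell shift minus the T cell shift was -0.99 and -0.58. HF75 Week 3 and LFC Week 18, the arrays with few members above background, had the largest excess of B over T, 1.83 and 1.53.

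Across the 39 arrays levels of B cell receptor and T cell receptor genes were correlated. The 10 correlations computed used permutation tests of 100000 draws and were adjusted over the 10. Cd79a and Cd3e had r = 0.75 (rho = 0.81, adjusted p = 1e-04 for both), 0.74 without the 2 arrays farthest from the median of Cd79a, and 0.73 within time points (adjusted p = 3e-04). Cd79a and Cd3e were well above background on 17 and 28 of the arrays, and the brighter pair of Cd79b and Cd3g had r = 0.77 (adjusted p = 3.33e-05). The raw p of 1e-05 is the smallest that these draws can give. Cd79a and Fcer2a had r = 0.64 (adjusted p = 0.00015, rho = 0.56), and 0.52 and 0.71 in those 2 checks. Cd79a and Cd79b had r = 0.56 (adjusted p = 0.00103, rho = 0.41), falling to 0.39 without LFC Week 3 and HFC Week 6. Cd3e and Cd3g had r = 0.46 (adjusted p = 0.00742, rho = 0.45), and within time points 0.44 with an adjusted p of 0.0621.

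Pairs with genes of other kinds changed when Cd79b stood for Cd79a and Cd3g for Cd3e, where gene and probe change together. Cd79a and Gzma had r = 0.35 (adjusted p = 0.0576, rho = 0.32), which was 0.18 without those 2 arrays. With Cd79b in place of Cd79a it was 0.70 (adjusted p = 5e-05 in the same permutation test). Cd3e and Gzma had r = 0.21 (rho = 0.26, adjusted p = 0.35), and Cd3g and Gzma r = 0.72 (adjusted p = 3.33e-05). Cd79a had r = 0.14 with Ccl19, 0.16 with Cxcl13 and -0.11 with the macrophage gene Cd68. The rho values were 0.13, 0.13 and -0.06 and the adjusted p 0.499, 0.485 and 0.56. Cd79b was well above background on 39 arrays against 17 for Cd79a. With the same genes Cd79b had r = 0.41, 0.42 and 0.32, with adjusted p of 0.0125, 0.0105 and 0.0534 in the same permutation test. Cd3e and Cd68 had r = -0.07 (rho = -0.05, adjusted p = 0.693), and Cd3g and Cd68 r = 0.28 (adjusted p = 0.0831). The level of Cd79a had r = -0.48 with the array's log2 75th percentile (rho = -0.51, adjusted p = 0.01 by permutation), and Cd3e had r = -0.27, Cd79b -0.28, Cd3g -0.21 and Gzma 0.02. That percentile is subtracted in each level, so a gene near background, as Cd79a was on most arrays, tends to a negative r by construction. The part of signal strength in the correlations was not tested.

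Genes outside the members with the most similar pattern were searched among 19125 gene names over the 39 arrays. For the mean of the B cell genes they included Fcrl1 (r = 0.95) and Sidt1, H2-Oa, Gm8369 and Spib (0.92 each), then Ccr6 (0.91), Ptprcap and Traf3ip3 (0.90 each) and Bank1 (0.89). For the T cell mean they were a T cell receptor transcript listed as ENSMUST00000103291 (0.96), then Ctsw, Skap1 and A430107D22Rik (0.95 each), Tcrb-V13, LOC100048841 and 5830405N20Rik (0.94 each), and Gfi1, Cd7 and Gm8369 (0.93 each). For the cytotoxic mean they included ENSMUST00000103291 and Tcrb-V13 (0.95 each), Il2rb, Ms4a4b, Klra7 and LOC100044242 (0.93 each), and LOC641199, Klrc2 and Gzmb (0.92 each). Gm8369 stood on the B cell and the T cell list.

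The first comparison asked whether the high-fat diet changed the lymphocyte genes, as HFC against LFC over the 10 shared time points. In HFC minus LFC the median difference was -1.35 log2 units over the B cell genes, -0.63 over the T cell genes and 0.09 over the cytotoxic genes, against -0.04 over all genes, and 26 of the 29 members tested were lower in HFC. No member's difference passed the test. Without Week 3, or without its LFC array alone, the medians were -0.71, 0.06 and 0.57, so the T cell median no longer lay below 0, and without Week 9 they were -0.86, -0.17 and 0.37. Of 29 members tested 0 had an adjusted p under 0.05 by limma (0% of 19873 genes), and 2 had an unadjusted p under 0.05, against 5.87% of all genes. The paired test of each gene on its own also gave 0 adjusted and 0 unadjusted.

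The differences lay in a few weeks. Fcer2a had levels of -6.90 to 1.42 in LFC (median -4.53, 10 arrays) and -7.76 to -3.04 in HFC (median -6.20, 11 arrays), so the groups overlapped. It was well above background on 8 of 10 LFC and 4 of 10 HFC arrays of the fit, so the low HFC levels are bounds. Its measured difference was -2.10 ± 0.89 (SE, n = 10 time points), with p = 0.037 and an adjusted p of 0.802 by limma, and HFC was higher at 4 of 10 time points. The second member was Cd4, at -6.19 to -3.23 in LFC (median -5.02) and -7.62 to -2.95 in HFC (median -5.64). Its difference was -0.91 ± 0.40 (SE, n = 10), with p = 0.0379, an adjusted p of 0.802 by limma and HFC higher at 3 of 10. Klrd1, the cytotoxic member with the smallest p, had a difference of -0.16 ± 0.76 (SE, n = 10; p = 0.835, adjusted p = 0.974 by limma).

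By time point, the median B cell difference was 0.01 at Day 6, -1.18 at Day 10, 0.05 at Day 14 and 0 at Week 0. It was -5.75 at Week 3, -2.33 at Week 6 and -3.61 at Week 9, and then 0.79, 1.46 and 1.19 at Weeks 12, 15 and 18. The T cell differences were 0.42 at Day 6, 0.06 at Day 10, 1.04 at Day 14 and 0.64 at Week 0. They ran -6.40, -2.23 and -4.05 at Weeks 3, 6 and 9 and 0.81, 1.24 and 3.24 at Weeks 12 to 18. The cytotoxic differences were -0.27, 1.07, 1.55 and -0.04 from Day 6 to Week 0. From Week 3 on they ran -4.36, -3.65 and -3.22, and then 1.32, 1.49 and 5.11. On LFC Week 18, 0 of 4 cytotoxic and 7 of 20 T cell members were well above background, so 5.11 and 3.24 are not exact sizes. At Week 3 and Week 9 no member was higher in HFC, and at Week 18 each T cell and cytotoxic member was. The 2 unadjusted members became 0 without Week 3, Week 6, Week 9 or Day 10, 0 without the LFC Week 3 array alone, and 1 without Day 6 or Week 15.

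**Figure D4:**
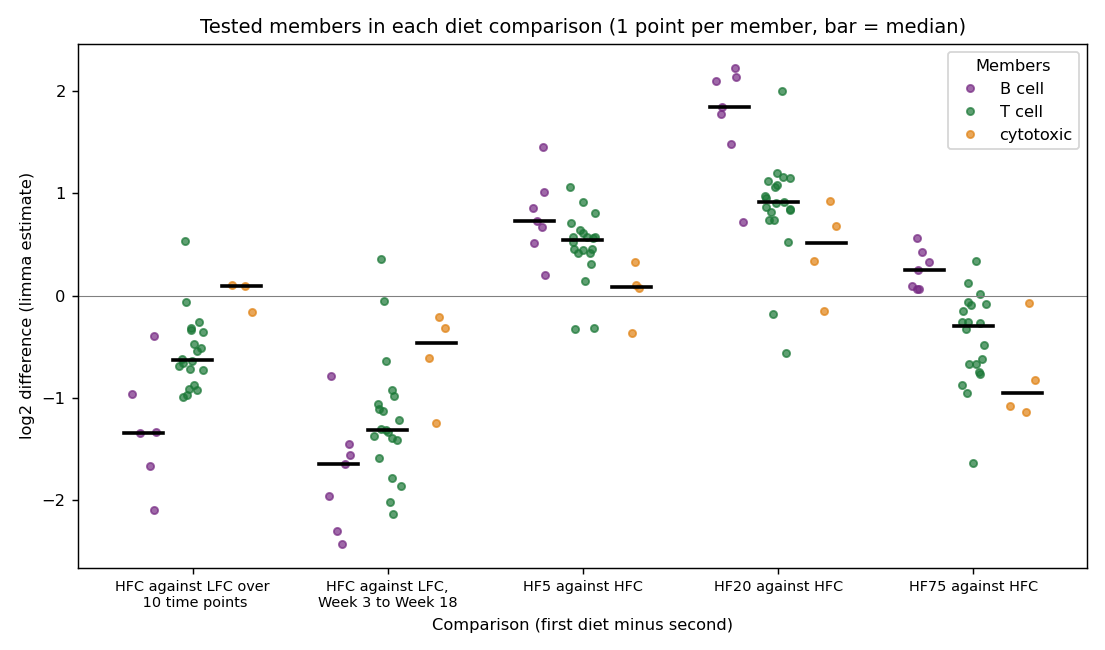
Each point is the fitted difference of 1 tested member, in log2 units (vertical axis), in each of 5 diet comparisons (horizontal axis), coloured by B cell, T cell or cytotoxic gene, with a bar at the median of each. In the comparison of HFC with LFC 26 of 29 members lie below 0, and in that of HF20 with HFC 28 of 31 lie above 0, with medians of 1.85, 0.92 and 0.51.

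Whether the difference of HFC and LFC was another one from Week 3 on than before was asked next. The later differences lay lower than the earlier ones by medians of -1.24 for B cell, -1.61 for T cell and -1.03 for cytotoxic genes, against -0.01 over all genes, and 28 of 29 members went that way. Without Week 3, or its LFC array alone, the medians were -0.32, -0.73 and -0.17, and without Week 18 they were -1.50, -2.53 and -2.19. By limma 0 of 29 members passed adjustment (0% of all genes) and 1 had an unadjusted p under 0.05, against 1.89%, with 0 by the paired test. That member was Cd3e, at -1.39 ± 0.64 (SE, n = 10 time points; p = 0.0454, adjusted p = 1 by limma). Cd37 was at -0.97 ± 0.91 (p = 0.304, limma) and Klrd1 at -1.13 ± 1.57 (p = 0.49, limma). The unadjusted count was 6 without Week 18, or without the LFC Week 18 array alone, and 6 with array quality weights, and 0 without Day 14 or any 1 of Weeks 0, 3, 6, 9 and 15. Other lists also moved in this comparison. The median was -2.27 over 10 muscle genes, -1.09 over 10 general leukocyte genes and -0.57 over 15 macrophage genes. It was -0.04 over 11 stroma and venule genes and 0.34 over 7 epithelial genes.

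Within Weeks 3 to 18 the same pair of diets was fitted together with the KAL-1 groups. The medians were -1.65 for B cell, -1.31 for T cell and -0.47 for cytotoxic genes, against -0.06 over all genes, and 30 of 31 members were lower in HFC. Without Week 3 the 3 medians were -0.81, -0.20 and 0.28, without Week 6 -1.52, -1.05 and 0.18, without Week 9 -1.15, -0.65 and 0.09, and without Week 18 -2.09, -2.03 and -1.68. Of the 31 tested 0 passed adjustment by limma (0% of 21087 genes) and 4 had an unadjusted p under 0.05, all lower in HFC, against 5.06% of all genes. The paired test gave 0 of either kind. The 4 were Cd79b, Cd4, Cd8b1 and Tcf7. In the same fit the median was -1.44 over 10 muscle genes, -0.36 over 10 general leukocyte genes and 0.32 over 15 macrophage genes.

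Cd79b ran from -1.56 to 5.67 in LFC (median -0.46, 6 arrays) and from -2.29 to 0.07 in HFC (median -1.94). After LFC Week 3, the next highest of all 10 LFC arrays was at 1.62, and the groups overlapped. The difference was -1.96 ± 0.92 (SE, n = 6 time points; adjusted p = 0.85 by limma), and HFC was higher in 2 of 6 weeks. Cd4 ran from -5.47 to -3.23 in LFC (median -4.56) and from -7.62 to -2.95 in HFC (median -6.06), with a difference of -1.39 ± 0.60 (SE, n = 6; adjusted p = 0.85 by limma). Cd8b1 was well above background on 5 LFC and 2 HFC arrays of 6 and Cd4 on 4 and 3, so their differences are not exact sizes, while Tcf7 was on 6 and 5. As measured, Cd8b1 differed by -2.14 ± 0.94 and Tcf7 by -1.86 ± 0.88 (SE, n = 6; adjusted p = 0.85 by limma for both). Gzmk, the cytotoxic member with the smallest p and well above background on 3 LFC and 1 HFC arrays, differed by -1.25 ± 0.74 (SE, n = 6; adjusted p = 0.85 by limma).

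The count of 4 rested on single weeks. It was 0 without Week 3, Week 6 or Week 9, 1 without the LFC Week 3 array alone, 11 without Week 15, 13 without Week 18 and 8 without the LFC Week 18 array. It was also 0 with quantile normalization, 9 with scan day as a block, 2 with no time point block, 1 with slide as a random block, with array weights or with probes well above background on every array, and 17 with normexp. In none of these did a member pass adjustment.

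KAL-1 was compared with HFC at each dose over Weeks 3 to 18, and the comparisons share the 6 HFC arrays. At 5 µg the medians were 0.73, 0.54 and 0.08 for B cell, T cell and cytotoxic genes, against 0 over all genes, with 28 of 31 members higher in HF5. Of the 31 members 0 passed adjustment (0% of all genes) and 0 had an unadjusted p under 0.05 by limma, against 1.36% of genes, and the paired test gave 0 of either kind. At 20 µg the medians were 1.85, 0.92 and 0.51 against 0.05, with 28 of 31 higher in HF20. At 75 µg they were 0.25, -0.30 and -0.96 against 0, with 10 of 31 higher in HF75. Each of the 7 tested B cell members was above HFC at each dose, without passing the test, against 50.2%, 55.5% and 50.2% of all genes, and the doses share the HFC arrays. The 25 other B cell genes had medians of 0.29, 0.90 and -0.21, with 0, 1 (H2-Ob) and 0 higher and 0, 0 and 2 (Cd83 and Ebf1) lower at an unadjusted p under 0.05, and 0 passing adjustment by limma. Of 17 other cytotoxic and natural killer genes, 1 (Klrc1), 3 (Eomes, Klrc1 and Ncr1) and 2 (Klrc1 and Ncr1) were higher at that p, with medians of 0.08, 0.75 and -0.43, and of 25 other T cell genes 0, 1 (Ubash3a) and 0, with 0.47, 0.70 and -0.06, and 0 of either list passed adjustment by limma. Of all genes, 1.36%, 4.29% and 5.02% had an unadjusted p under 0.05 by limma at the 3 doses, in either direction. The medians depended on single weeks. Without Week 9 the B and T cell medians were 0.09 and -0.02 at 5 µg, 1.28 and 0.43 at 20 µg, and -0.55 and -1.23 at 75 µg. At 20 µg they were 1.21 and 0.48 without Week 3 and 1.52 and 0.38 without Week 6, and at 75 µg the T cell median was 0.21 without Week 15, 0.08 without Week 18 and 0.00 without the HF75 Week 3 array. The cytotoxic median was -0.14, -0.23 and -0.27 at 5 µg without Week 3, 6 or 9, and -0.27 at 20 µg without Week 6.

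**Figure D5:**
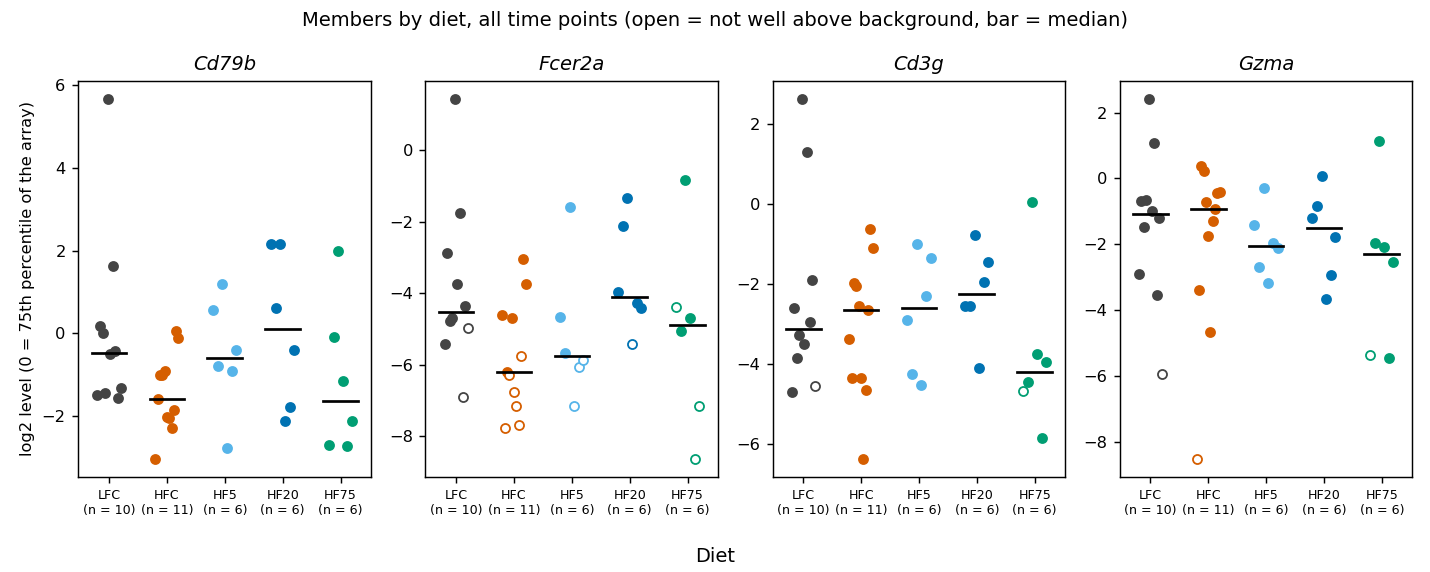
Levels of Cd79b, Fcer2a, Cd3g and Gzma on each array, in log2 units relative to the array's 75th percentile, by diet, with 1 point per array, open where the spot was not well above background, and a bar at the median. Cd79b runs from -1.56 to 5.67 in LFC and from -3.03 to 0.07 in HFC, and the diets overlap for each of the 4 genes.

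At 20 µg, 0 of 31 members passed adjustment (0% of all genes) and 2 had an unadjusted p under 0.05, against 4.29%, both B cell genes and both higher in HF20. Cd79a ran from -6.75 to -2.83 in HF20 (median -4.22) and from -8.81 to -3.71 in HFC (median -7.04), and was well above background on 5 and 1 of 6 arrays, so the levels of the other 5 HFC arrays are bounds and the difference is not an exact size. As measured, the difference was 2.14 ± 0.80 (SE, n = 6 time points; adjusted p = 0.997 by limma), higher in 5 of 6 weeks. Cr2 had levels of -6.31 to -1.45 in HF20 and -8.38 to -3.25 in HFC, and was well above background on 4 and 3 of 6 arrays. Its measured difference, likewise not an exact size, was 2.23 ± 1.00 (SE, n = 6; adjusted p = 0.997 by limma), higher in 4 of 6 weeks. The other probe of Cr2, well above background on 16 arrays, correlated with the one used at r = 0.16, so this value rests on 1 probe. Cd4, well above background on 3 of 6 arrays in each group, differed by 1.20 ± 0.60, and Gzmk, on 2 and 1, by 0.93 ± 0.74 (SE, n = 6; adjusted p = 0.997 by limma for both).

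The 2 unadjusted calls at 20 µg were 0 without Week 6 or Week 9, with quantile normalization, with probes above background on every array and in the paired test. They were 1 without Week 3, with the Week 12 labels exchanged or with no time point block. They were 8 without Week 18, 5 without Week 15 or without the HF75 Week 3 array, and 4 without the LFC Week 3 array. With normexp background correction 14 members passed adjustment together with 38.5% of all genes, of which 7356 of 8120 were higher in HF20, and the median of all genes was 0.36. Relative to that median the B cell genes lay at 1.33, the T cell genes at 0.88 and the cytotoxic genes at 0.26. The count of 14 was 0, of all genes too, without Week 6, Week 9 or Week 12, or with the Week 12 labels exchanged. On the HF20 arrays of Weeks 6, 9 and 12 that correction left interquartile ranges of 0.38, 0.43 and 1.08 log2 units, against 4.76 to 8.27 for the processed signals of the arrays. With the same correction the range was 0.46 on HF75 Week 9 and 1.05 on LFC Week 18, and the widest was 4.49 on HF5 Week 6.

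By week, the B cell genes in HF20 minus HFC had medians of 2.83, 2.65 and 4.71 at Weeks 3, 6 and 9, 0.16 at Week 12, and -0.66 and -0.62 at Weeks 15 and 18. The T cell medians were 2.97, 3.10 and 3.26 and then -1.65, -1.66 and -0.79. In HF5 the B cell medians were 1.09, 1.49 and 3.48 and then -0.80, -1.22 and -0.62, and in HF75 they were -0.04, 1.36 and 4.25 and then 0.35, -1.68 and -2.40. The B cell medians of the 3 doses were thus above HFC at Weeks 6 and 9 and below it at Weeks 15 and 18, against the same HFC arrays. Within Weeks 3 to 18 of HFC itself, the B cell shift was lowest at Weeks 6 and 9 and the T cell shift at Weeks 3 and 6, and both were highest at Weeks 15 and 18.

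At 75 µg, 0 of 31 members passed adjustment by limma (0% of all genes) and 0 had an unadjusted p under 0.05, against 5.02% of all genes; the paired test gave 0 of either kind. Il7r ran from -6.02 to 0.38 in HF75 (median -3.17) and from -3.79 to 0.13 in HFC (median -0.76). It had the smallest p of the T cell genes, with a difference of -1.64 ± 0.92 (SE, n = 6; adjusted p = 0.866 by limma). Gzma differed by -1.14 ± 1.05 (SE, n = 6; adjusted p = 0.874 by limma) and Cd79a by 0.43 ± 0.80 (SE, n = 6; adjusted p = 0.94 by limma). At 5 µg Cd4 differed by 1.06 ± 0.60, Cd79a by 1.01 ± 0.80 and Gzma by -0.37 ± 1.05 (SE, n = 6; adjusted p = 1 by limma for each). The unadjusted count at 75 µg was 2 without Week 9 and 1 without the LFC Week 3 array, and at 5 µg 1 without Week 18.

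With the 3 doses pooled, the medians were 1.01 for B cell, 0.38 for T cell and -0.08 for cytotoxic genes, against 0.02 over all genes, and 26 of 31 members were higher with KAL-1. Without Week 9 the B and T cell medians were 0.22 and -0.30, and without Week 6 0.70 and -0.03. By limma 0 members passed adjustment (0% of all genes) and 0 had an unadjusted p under 0.05, against 4.51% of all genes, and the paired test gave 0 of either kind. Cd79a differed by 1.19 ± 0.66, Cd4 by 0.79 ± 0.49 and Gzma by -0.55 ± 0.85 (SE, n = 6; adjusted p = 1 by limma for each). The unadjusted count was 4 without Week 18 and 5 with normexp.

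Whether B cell and T cell genes differed by unlike amounts was tested for a single pair, as the Cd79a difference minus the Cd3e difference at each time point. Cd79a was well above background on 4 of 10 HFC and 5 of 10 LFC arrays, too few for the fit of those 10 time points, so the values rest largely on levels near background. Between HFC and LFC it was -0.72 ± 1.35 (SD, n = 10 time points), positive at 3 of 10, with p = 0.129 in an exact two-sided sign-flip permutation test, whose smallest possible p is 0.00195. Between the KAL-1 doses together and HFC it was 0.55 ± 1.14 (SD, n = 6), positive at 5 of 6 (p = 0.312 in the exact permutation test, smallest possible 0.0312). With the brighter probes of Cd79b and Cd3g the values were -0.63 ± 1.58 (SD, n = 10; exact permutation p = 0.229) and 0.48 ± 0.74 (SD, n = 6; exact permutation p = 0.188).

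Over Weeks 3 to 18 a slope per week was fitted across the diets. Diet was a covariate and there was no time point block, so the arrays of a week were treated as independent. The Week 9 arrays of LFC and of the KAL-1 groups were raised together, so the SE and p of a slope may be too small. The median slope was -0.08 log2 units per week for B cell, 0 for T cell and -0.03 for cytotoxic genes, against 0.01 over all genes. By limma 0 of 31 members passed adjustment, against 0.0948% of all genes, and 1 had an unadjusted p under 0.05, against 15.5%. It was Cd79b, at -0.12 ± 0.06 per week (SE, 30 arrays; p = 0.0466, adjusted p = 0.316 by limma). Of 12 lymph node stroma and venule genes, 5 (Ccl19, Cxcl13, Il33, Madcam1 and Pdpn) had a higher and 1 (Ccl21c) a lower slope at an unadjusted p under 0.05, as did 3 of 9 plasma cell genes (Igh-6, Ighg and Igj), higher, and 0 of them passed adjustment by limma. Cd27 changed by -0.06 ± 0.06 (p = 0.316, limma) and Gzma by -0.08 ± 0.07 per week (p = 0.233, limma). The unadjusted count was 3 without Week 6, 0 without Week 9, 12 or 15, and 0 without the LFC Week 3, LFC Week 18 or HF20 Week 15 array alone. Without Week 3, 2 had an unadjusted p under 0.05 and 1 passed adjustment, Cd247, at -0.11 ± 0.03 per week (p = 0.00243, adjusted p = 0.0301 by limma), together with 13.6% of all genes.

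Lists of other cells gave values beside these comparisons. In HFC against LFC over 10 time points, 6 of 15 macrophage genes (Cd14, Cd68, Emr1, Itgax, Mpeg1 and Trem2) had an unadjusted p under 0.05 (5.87% of all genes) and were higher in HFC, with 0 passing adjustment by limma, while 2 of 11 lymph node stroma and venule genes, Chst4 and Madcam1, and 2 of 4 red cell genes, Hba-a1 and Hbb-b1, were lower. Of 24 other B cell genes 1, Fcrla, was lower, and of 23 other T cell genes 0 had an unadjusted p under 0.05. Over Weeks 3 to 18, 5 of 25 other B cell genes (Fcrla, H2-Ob, Pou2af1, Siglecg and Tnfrsf13b) were lower in HFC at an unadjusted p under 0.05, as were 1 of 25 other T cell genes (Cd96), 2 of 17 other cytotoxic and natural killer genes (Klrc1 and Ncr1), 2 of 9 plasma cell genes (Igh-6 and Ighg) and 2 of 12 stroma and venule genes (Chst4 and Madcam1), while 2 of 15 macrophage genes, Mpeg1 and Trem2, were higher, against 5.06% of all genes, and 0 of these lists' genes passed adjustment by limma. The mean of the stroma and venule genes was shifted by -1.01 to 1.97 over the LFC arrays, -1.32 to 1.57 in HFC, -1.55 to 1.29 in HF5, -1.42 to 1.30 in HF20 and -1.41 to 0.36 in HF75.

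Values of muscle and macrophage genes stand beside the KAL-1 comparisons. The median difference of 10 skeletal muscle genes was 2.14 at 5 µg, 1.85 at 20 µg and 2.79 at 75 µg, with 4, 3 and 4 of them at an unadjusted p under 0.05 and 0 passing adjustment by limma. Their mean was shifted by -3.42 to 0.71 over the HFC arrays of Weeks 3 to 18, by -2.81 to 6.25 in HF5, -1.72 to 2.70 in HF20 and -2.36 to 7.88 in HF75, with the highest values on HF5 Week 12, HF20 Week 18 and HF75 Week 3. With the doubted Week 12 labels exchanged, the ranges were -2.81 to 1.24 in HF5 and -1.72 to 6.25 in HF20. Macrophage genes had median differences of -0.34, -0.68 and -0.74 at the 3 doses, with 0, 3 and 5 of 15 lower at an unadjusted p under 0.05 (1.36%, 4.29% and 5.02% of all genes in either direction) and 0 passing adjustment by limma. General leukocyte genes had medians of -0.17, -0.13 and -0.90, with 0 of 10 at an unadjusted p under 0.05 or past adjustment by limma. The part of muscle, lymph node or macrophage RNA in the lymphocyte gene differences was not tested.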

How the data were processed

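RNA of 39 mouse subcutaneous adipose samples was hybridised to 1-colour Agilent 44k arrays. The deposited files hold, per the file headers, Feature Extraction 10.5.1.1 output: processed, mean and background intensity per spot, and flags (1 or 0, a score per spot) for spots well above background, saturated or outlying. The labels name version 9.1. The authors also deposited a table of log2 ratios of each array to LFC, made in GeneSpring, which was used only to check labels. Columns of the authors were used in no other way.

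The processed intensity was taken as log2 and scaled by the 75th percentile of each array. Spots of a probe were averaged without outlier spots and control spots were left out. A gene entered a fit when 0.5 or more of its spots were well above background on a number of arrays no smaller than that of the smallest group. The model was limma's (version 3.58.1, R 4.3.3), across all genes, with time point as a fixed block. The slope per week instead had diet as a covariate and no block. P-values were two-sided, adjusted by Benjamini-Hochberg and read at a threshold of 0.05. The first model held HFC and LFC at 10 time points (20 arrays), and another the 5 diets in Weeks 3 to 18 (30 arrays). Replicate numbers followed accession order and paired nothing, so the time point in the labels was the block. There was 1 array for each diet and time point, although the series' design text speaks of biological replicates, so p-values rest on the spread between time points, which may hold technical differences. Those of the slope rest on the spread of single arrays around a line. Slides and scan days were read from the headers. Single values were tested with exact sign-flip permutation, correlations with 100000 permutations (SciPy 1.17.1). Figures were drawn with matplotlib 3.10.9. The code was tested on simulated data.

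For each comparison, the member with the smallest p in each of the 3 groups was named, and any past the threshold; levels were given for members the text turns on; the 10 most similar genes were named per group, except for a few that are not reported here. Cr2, Cd8b1 and Tcf7 were named in comparisons after their values were seen. The members and lists were chosen with earlier results of these data known. Alternatives were normexp background correction (offset 50), quantile normalization, no filter or a filter on every array, the mean of all probes, outlier spots kept, array weights, an intensity trend with a robust prior, slide or scan day as a block, no time point block, a paired test of each gene, the Week 12 labels exchanged, and leaving out each time point. Leaving out single arrays, the exchange of Cd79a and Cd3e for Cd79b and Cd3g, the week-by-week normexp fits, the centring of each gene before list means and the stroma list without Glycam1 and Fut7 were chosen after seeing the data. Promoters were taken from RefSeq (GRCm38.p6), the first start where a gene had several. Proteins and the genome were not used here.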

Additional observations from a re-analysis of the deposited data

Results flagged for a closer look

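Within LFC, HF5, HF20 and HF75 (HFC, with 11 arrays, was not tested), the highest or lowest array was set against its neighbour for the 33 members, and for the means of their B cell, T cell and cytotoxic groups, as the gap divided by the diet's range. Of 144 sets of arrays tested 12 passed Dixon's critical value. Chance passes about 1 in 20 of independent sets. These sets share arrays and hold members that move together, and the means hold the same members, so the count of 12 cannot be set against that share. In HF75 the array of Week 9 stood above the other 5 for the mean of the B cell members, at -1.35 against a next value of -4.67, and for the mean of the T cell members, at -0.01 against -3.33. The same array stood apart for Cr2 (-1.38, next -5.65), Cd3g (0.06, next -3.75), Tcf7 (-0.65, next -4.34) and Gzmk (-3.82, next -6.10). In LFC the array of Week 3 stood above the others for Cd79b, at 5.67 against 1.62, and for Blk, at -2.68 against -5.33. Blk was also apart in HF5, at -4.50 on Week 9 against -6.75. Low arrays were HF5 Week 12 for Ms4a1 (-4.14, next -1.07), HF20 Week 18 for Cd3e (-5.42, next -4.06) and HF75 Week 3 for Cd247 (-5.84, next -2.67). The HF5 array of Week 12 is 1 of the 2 whose labels and value table disagree, and HF75 Week 3 had 6 members well above background. Blk was well above background on 1 LFC and 1 HF5 array, and Cr2 and Gzmk each on 1 HF75 array, so their gaps are measured against levels near background. Cd3e on HF20 Week 18 and Cd247 on HF75 Week 3 were not well above background, so those low values are bounds. The causes were not tested.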

How the results depend on the processing

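The count of members past an adjusted p of 0.05 stayed at 0 in HFC against LFC (both spans and the change between them), HF5, HF75 and the doses together against HFC under each alternative run. It was 14 in HF20 with normexp, and for the slope per week 0 to 1 when leaving out 1 week at a time. With no time point block, the pairing of arrays by time point, the counts were 0 in each comparison that has one. The slide block could not be fitted for HFC against LFC over 10 time points, and the paired test has no form for the slope. With normexp the median of all genes was -0.14 for HFC against LFC over 10 time points, -0.22 over Weeks 3 to 18, and 0.36, 0.21 and 0.19 for HF20, HF75 and the doses together against HFC. Signs changed for small differences: Gzmk in HF20 with quantile normalization (0.00), Cd79a in HF75 with array weights (-0.12) and over weeks left out (-0.19 to 1.20), Gzma in HF5 with scan day as a block (0.13) and over weeks left out (-0.84 to 0.01), and Klrd1 in HFC against LFC without LFC Week 3 (0.25) and over time points left out (-0.70 to 0.25). The T cell median of HFC against LFC was -1.08 to 0.06 over time points left out, and that of the B cell genes -1.67 to -0.71. Among correlations, Cd79a with Gzma was 0.52 with normexp, 0.41 with quantile and 0.70 with Cd79b and Cd3g as the genes. Cd79a with Ccl19 was -0.03 with normexp and 0.41 for Cd79b, Cxcl13 0.42 and Cd68 0.32 for Cd79b. Cd3e with Gzma was 0.46 with normexp and 0.72 for Cd3g, and Cd3e with Cd68 0.07 with quantile and 0.28 for Cd3g. The causes were not tested. With 1 array per diet and week, and with Cd79a above background on 17, Gzmk on 14, Pax5 on 10 and Blk on 7 of 39 arrays, the sizes of differences in these and other dim genes are limited by signal over background.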
